A study of Mus musculus with 6 samples.

Results

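Transcripts of the mitochondrial ribosomal proteins were examined in whole kidney of wild-type (WT) mice labelled 24M (4 libraries) and 2M (2 libraries), from a study of how the kidney ages that was built around the uniporter for mitochondrial calcium. The genes were chosen by name, as those in both deposited expression tables whose symbol is Mrpl or Mrps followed by a number, without pseudogenes. This gave 78 genes among the 12546 that both tables list, 49 named Mrpl and 29 named Mrps, and each table holds all 78. All groups share the WT genotype and no treatment is given in the labels, which also give no animal behind each library, so a p-value reflects only how much these samples vary, and that variation may be technical. Values are FPKM, fragment counts scaled for transcript length and library size. The first table holds 24M_1, 24M_2, 2M_1 and 2M_2 and was the only one used for tests, while 24M_3 and 24M_4 come from a table made separately and are set beside the others.

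The mitochondrial ribosome translates the few messenger RNAs encoded in mitochondrial DNA, all of which specify subunits of the respiratory chain and ATP synthase. Its ribosomal RNAs are made in the organelle, but every one of its proteins is encoded in the nucleus, made in the cytosol and imported. Part of these proteins have relatives in bacterial ribosomes and the others are specific to mitochondria. The kidney tubule, above all the proximal tubule, is rich in mitochondria because solute transport consumes ATP. By their known place in the mammalian particle, 51 of the 78 genes encode large-subunit proteins (30 with a bacterial relative and 21 specific to mitochondria) and 26 encode small-subunit proteins (16 and 10). Mrps30 and Mrps18a carry small-subunit names but encode proteins of the large subunit. Mrps36 is also known as a part of the oxoglutarate dehydrogenase complex rather than of the ribosome and was left out of both subunit classes.

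Kidney tubule markers were present in every library. The 12 proximal tubule markers summed to 8785 to 20020 FPKM in 24M and 10810 to 10870 FPKM in 2M. Most of each sum came from the single gene Kap. It had 8508, 9372, 6274 and 17106 FPKM in 24M_1 to 24M_4 and 8708 and 8536 FPKM in 2M. Sums of FPKM over each table were 290590 and 293057 in 24M_1 and 24M_2, 302628 and 335723 in 24M_3 and 24M_4, and 286198 and 295286 in 2M_1 and 2M_2. Lists that describe other cells differed between ages in the first table. Of 6 tested adipocyte markers (brown fat genes included) all 6 were lower in 24M. With the untested Plin1, the 7 markers of the first table summed to 0.484 and 0.345 FPKM in 24M_1 and 24M_2 and 26.1 and 29.2 FPKM in 2M. Ucp1 and Plin1 were listed at 0 in 24M_1 and 24M_2 and are absent from the separate table. The other 5 summed there to 0.518 and 6.91 FPKM in 24M_3 and 24M_4, so these sums cover fewer genes. All 5 red blood cell markers and all 8 collecting duct markers had a log2 change below 0, and 1 of each list passed the threshold. Of 6 macrophage markers 5 had a change above 0 and 1 passed. Of 5 markers of thick ascending limb and distal tubule 3 had a change above 0 and 1 passed, and of 12 proximal tubule markers 8 and 1. Jchain, the only tested T and B cell marker, passed as higher in 24M. None of 6 urothelium, 4 podocyte and 4 endothelial markers passed in limma, with 2, 1 and 3 of these at an unadjusted p below 0.05. Red blood cell markers summed to 23.4, 48.6, 199.9 and 167.8 FPKM in 24M_1 to 24M_4 and 196.5 and 155.5 FPKM in 2M. The library 24M_3 stood apart, with macrophage markers at 396 FPKM in sum against 39.7 to 79.2 FPKM in the other libraries of 24M and 29.0 and 32.9 FPKM in 2M. The part of these differences in the values below was not tested. In whole tissue, fewer cells of a type and less RNA per cell cannot be told apart.

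All 78 genes were at 1 FPKM or more in all 6 libraries, and 59 averaged at least 10 FPKM over the first table. In sum they reached 2073 and 2053 FPKM in 24M_1 and 24M_2, 1716 and 2202 FPKM in 24M_3 and 24M_4, and 1996 and 2061 FPKM in 2M_1 and 2M_2. This was 0.713% and 0.701% of all FPKM in 24M_1 and 24M_2 and 0.698% in each of the 2M libraries. In the separate table the share was 0.567% in 24M_3 and 0.656% in 24M_4, where both libraries lay below 2M. By the sum itself 24M_3 lay below both 2M libraries and 24M_4 above both. These shares rest on unlike totals, over 13606 genes in the separate table and 12666 genes in the first. Messenger RNAs of mitochondrial DNA took 15.6% of the total in 24M_3 and 20.3% in 24M_4, against 15.02% and 16.8% in 2M. How far the totals account for the lower shares was not tested. Large-subunit transcripts outweighed small-subunit transcripts 2.20 and 2.23 times in 24M_1 and 24M_2, 2.53 and 2.46 times in 24M_3 and 24M_4, and 2.15 and 2.23 times in 2M.

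Although the proteins assemble in fixed numbers, the levels of their transcripts spanned a wide range. The highest member stood 52.9 and 48.0 times above the lowest in 24M_1 and 24M_2, 35.0 and 40.8 times in 24M_3 and 24M_4, and 36.0 and 36.3 times in 2M. The median level over the first table was 20.04 FPKM for large-subunit and 15.2 FPKM for small-subunit genes. Mrpl34, whose protein is a relative of bacterial L34, had the highest mean over the first table. Its levels were 118 and 119 FPKM in 24M_1 and 24M_2, and 121 and 114 FPKM in 2M_1 and 2M_2. In 24M_3 and 24M_4 they were 82.5 and 117 FPKM. Next by this mean was Mrpl18, a relative of bacterial L18. It had 113.2 and 110.5 FPKM in 24M_1 and 24M_2, and 104 and 113.1 FPKM in 2M. In 24M_3 and 24M_4 it had 51.3 and 66.6 FPKM. The highest Mrpl18 library of the first table lay just under the lowest Mrpl34 library of that table at 113.8 FPKM. Mrpl12, which forms the flexible stalk where translation factors dock, came next and lay below Mrpl18 in every library of the first table. It had 87.7 and 87.9 FPKM in 24M_1 and 24M_2 and 81.9 and 81.3 FPKM in 2M. In 24M_3 and 24M_4 Mrpl12 was the highest member, at 94.6 and 130 FPKM. Mrps21 and Mrpl54 followed, with means over the first table of 78.8 and 64.8 FPKM. At the low end, Mrps17 had a mean of 2.80 FPKM, Mrpl33 of 3.76, Mrps10 of 4.38, Mrpl23 of 4.68 and Mrpl19 of 5.42 FPKM. FPKM divides by a gene's length, and which length was used is not given in the sources used here. Annotated exons of Mrpl33 sum to 7326 bases and its longest coding transcript has 478. These lengths were 6490 and 5061 for Mrps17 and 607 by both measures for Mrpl34. The part of length in the range and order of levels was not tested. The order of the members was nearly the same in all libraries of the first table, with Spearman's rho of 0.983 to 0.993 over the 78 genes for each pair. It was 0.979 between 24M_3 and 24M_4 and 0.851 to 0.896 between libraries of different tables. These correlations are across genes that share library and gene length, and they describe the libraries only.

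**Figure D1:**
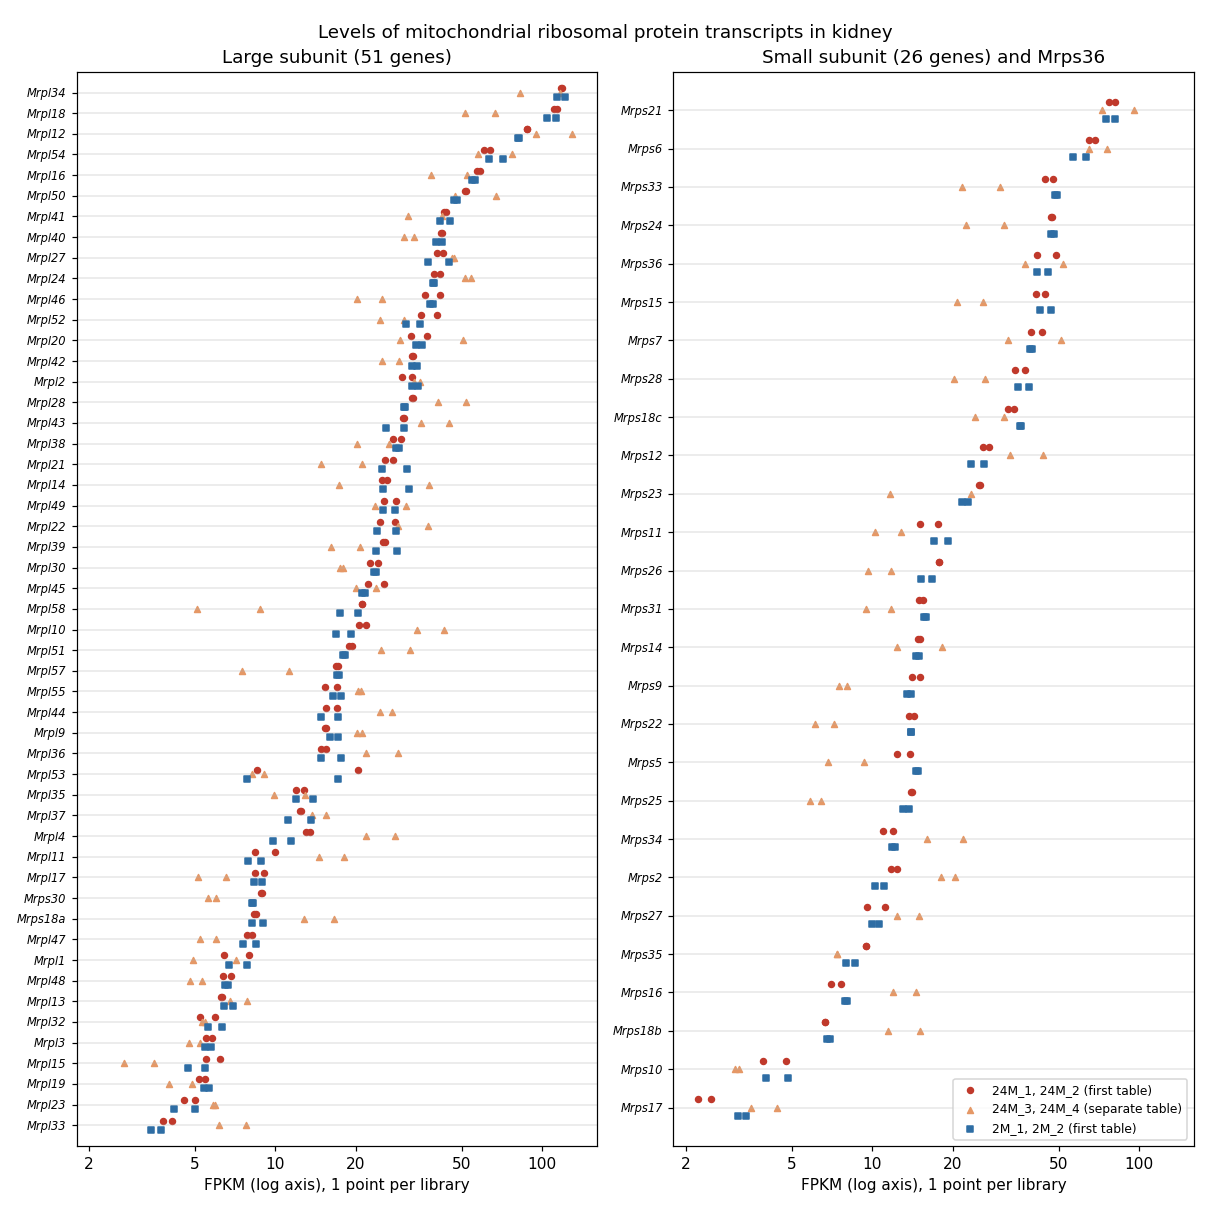
Level of each mitochondrial ribosomal protein transcript in FPKM on a log axis, 1 point per library, with large-subunit genes on the left and small-subunit genes and Mrps36 on the right, ordered by mean level in the first table. Points of 24M_1 and 24M_2 (red circles) and of 2M (blue squares) lie close together for nearly all genes, with Mrpl53 as the widest spread, while 24M_3 and 24M_4 of the separate table (orange triangles) depart from both to either side.

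The genes are scattered over 17 chromosomes, and features of their start sites were compared with those of other genes. For 33 of 78 members (42.3%) another protein-coding gene starts within 1000 bases on the opposite strand, against 16.2% of the 11401 protein-coding genes tested. The pairs include Mrps12 with Sars2, the mitochondrial seryl-tRNA synthetase, Mrpl36 with Ndufs6 and Mrpl47 with Ndufb5, both complex I subunits, Mrpl43 with the helicase gene Twnk, and Mrpl46 with Mrps11, which are both members. None of the 27 partners tested passed in limma, where Mrpl46 and Mrps11 each counted as the partner of the other. Of the 27, 5 had an unadjusted p below 0.05, which were Mitd1, Rab6a, Mtbp, Cyb5rl and Zfp189. That is near the share of 16.9% over all genes tested. Mrps12 had 27.4 and 26.04 FPKM in 24M_1 and 24M_2 and 26.2 and 23.5 FPKM in 2M, and Sars2 had 2.31 and 1.99 FPKM in 24M_1 and 24M_2 and 1.86 and 2.04 FPKM in 2M. Exons of 28 members overlap a gene on the opposite strand and those of 8 a gene on the same strand. Whether the counting used strand is not given in the sources used here, and for such genes reads of both partners cannot be told apart.

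Promoter sequences from RefSeq (build GRCm38.p6, 250 bases before to 50 after the start) were found for 69 members by symbol. They were searched on both strands for 5 motifs, chosen because factors of the ETS, NRF1 and YY1 kinds are known to act at many nuclear genes for mitochondrial proteins. The ETS core CCGGAAG was present in 26 of the 69 (37.7%), against 20.7% of the 8983 protein-coding genes tested and 12.95% of all 17492 protein-coding genes with a sequence. The NRF1 motif, which reads GCGCA, any base and GCGC, was present in 13 (18.8%, against 11.7% and 7.17%) and the YY1 motif AANATGGCG in 11 (15.9%, against 6.31% and 3.64%). At least 1 of these was present in 42 (60.9%, against 33.6% and 20.9%). The CCAAT box was present in 39.1% of members (42.4% of genes tested) and the TATA box, as TATAAA, in 7.25% (8.93%). No motif contains another, and a match is a description of the letters, not of a bound factor.

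Windows from 200 bases before to 30 after the start are shown for 4 members. They are the member with the highest mean over the first table and the member with the change of largest size. The others are a small-subunit and a large-subunit gene whose 24M_3 level lay far below that of 24M_1 and 24M_2. Capitals mark matches to the 5 motifs on either strand, and all 4 lie on the plus strand of GRCm38.p6 at chr8:71464726-71464955, chr5:129715297-129715526, chr11:88204188-88204417 and chr11:115403552-115403781.
Mrpl34: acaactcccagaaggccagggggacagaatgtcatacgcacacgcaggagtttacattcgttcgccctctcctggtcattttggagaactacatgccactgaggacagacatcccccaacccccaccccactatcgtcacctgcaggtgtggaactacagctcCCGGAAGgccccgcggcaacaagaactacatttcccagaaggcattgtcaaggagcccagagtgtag
Mrps17: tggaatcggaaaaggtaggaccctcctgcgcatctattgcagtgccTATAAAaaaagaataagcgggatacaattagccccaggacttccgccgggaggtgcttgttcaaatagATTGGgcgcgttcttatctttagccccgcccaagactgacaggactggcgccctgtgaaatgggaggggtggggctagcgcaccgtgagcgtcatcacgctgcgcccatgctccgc
Mrps23: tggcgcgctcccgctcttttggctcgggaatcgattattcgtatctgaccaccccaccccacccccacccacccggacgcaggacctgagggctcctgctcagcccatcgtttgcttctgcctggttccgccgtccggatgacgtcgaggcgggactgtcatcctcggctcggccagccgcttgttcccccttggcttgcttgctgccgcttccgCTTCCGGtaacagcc
Mrpl58: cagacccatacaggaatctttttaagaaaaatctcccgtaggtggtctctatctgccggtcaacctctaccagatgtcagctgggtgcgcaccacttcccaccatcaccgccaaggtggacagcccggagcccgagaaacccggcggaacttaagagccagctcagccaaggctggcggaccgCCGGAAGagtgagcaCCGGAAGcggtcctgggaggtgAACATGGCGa
Mrpl34 and Mrps23 hold an ETS match, Mrpl58 holds a pair of ETS matches and a YY1 match, and Mrps17 holds only a CCAAT box and a TATA box.

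**Figure D2:**
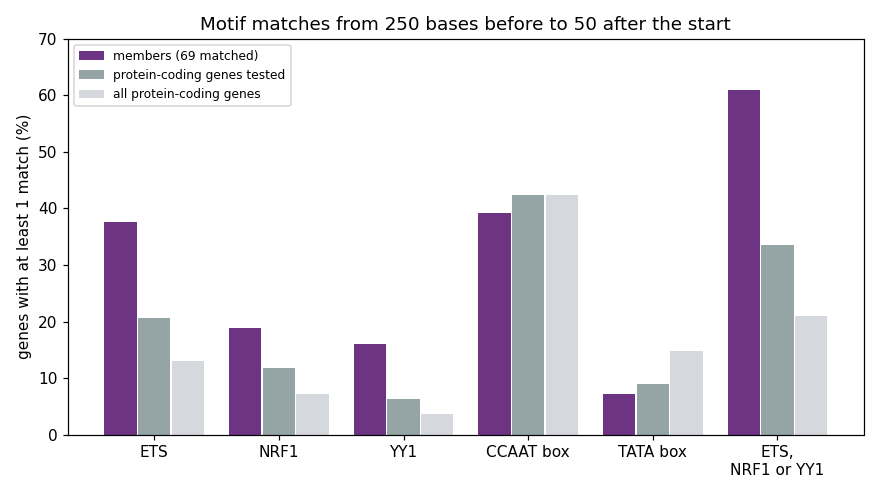
Share of genes with at least 1 match to each motif in the promoter window, in percent, for the 69 members with a sequence (dark), the protein-coding genes tested (grey) and all protein-coding genes with a sequence (light). At least 1 of the ETS, NRF1 and YY1 motifs was present in 60.9% of members and 33.6% of genes tested, and the CCAAT box in 39.1% and 42.4%.

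No mitochondrial ribosomal protein transcript differed with age past the threshold. All 78 members were tested with limma on log2(FPKM + 1), and 0 passed a Benjamini-Hochberg adjusted p of 0.05 in either direction, against 1.57% of all 11437 genes tested (0.761% higher and 0.813% lower in 24M) and 1.7% of the 8427 genes whose mean lay within the members' range of levels. The count was 0 of 78 under each of 10 alternative settings too, but without 2M_1 or without 2M_2 the fit called 0 of all genes and says nothing about the members. With only 1.57% of all genes called, a count of 0 of 78 does not set the members apart. The smallest adjusted p of a member was 0.202. At an unadjusted p below 0.05 there were 2 members, Mrps17 and Mrpl4, or 2.56%, against 16.9% of all genes tested. The log2 change was above 0 for 46 members and below 0 for 32, with a median of 0.012 (quartiles -0.044 and 0.093) beside -0.024 over all genes tested (quartiles -0.143 and 0.088). With the libraries centred on their median 54 members lay above 0, and without 2M_1 35 did, so the split by direction depends on the scaling and on 1 library. Over the fits that leave out 1 library in turn, 39 of 78 members had the other sign at least once. The median absolute change was 0.062 for the members and 0.118 over all genes tested, or 0.110 over those within the members' range of levels. The members' median absolute difference between the libraries of an age was 0.073 in 24M and 0.095 in 2M. Over all genes tested it was 0.106 and 0.104. These are differences of single libraries, which vary more than a difference of means of 2 libraries. Their size is thus not directly comparable with that of the change with age.

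The intervals of the changes show what size these data leave room for. For 75 of 78 members (96.2%) the 95% interval of the log2 change lay within -0.5 to 0.5, which held for 70.6% of all genes tested and for 75.3% of those within the members' range of levels. The exceptions were Mrps17, Mrpl4 and Mrpl53. A log2 change of at least 0.2 in either direction was seen for 3 members, Mrps17, Mrpl10 and Mrpl4 (3.85%), against 29.0% of all genes tested. The 24M_1 and 24M_2 libraries both lay above both 2M libraries for 20 members (25.6%, against 20.8% of all genes tested) and both below for 10 (12.8%, against 29.6%), and they overlapped for 48. Only 2 residual degrees of freedom remain in a fit of 4 libraries, so an interval rests largely on the spread that limma shares among genes.

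**Figure D3:**
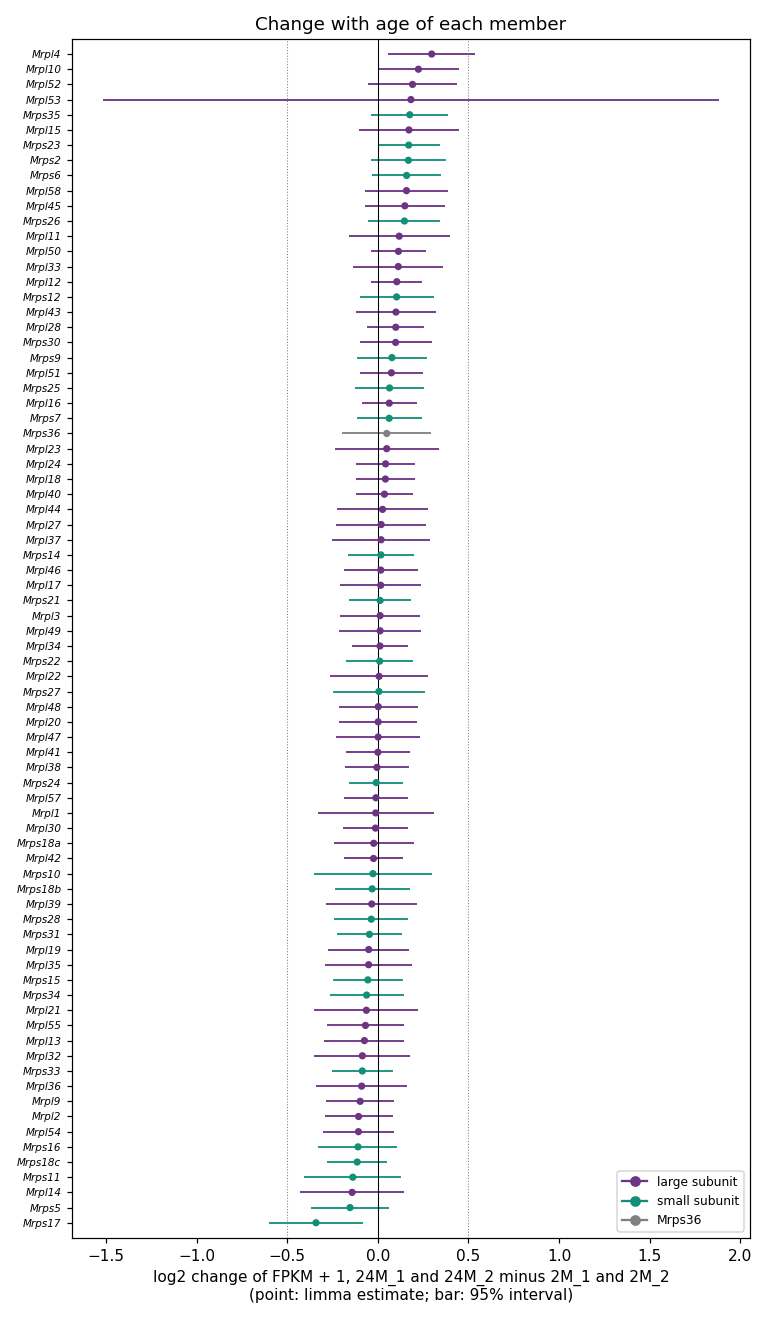
Log2 change of each of the 78 members, 24M_1 and 24M_2 minus 2M_1 and 2M_2, with its 95% interval from limma, and dotted lines at -0.5 and 0.5. All intervals except those of Mrps17, Mrpl4 and Mrpl53 lie between the dotted lines, and those of Mrps17 and Mrpl4 alone leave out 0.

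Large-subunit and small-subunit genes were described side by side. Among 51 large-subunit genes 32 had a log2 change above 0 and 19 below, with a median of 0.012 and a range of -0.142 to 0.297. Among 26 small-subunit genes 13 lay above and 13 below 0, with a median of -0.0019 and a range of -0.342 to 0.176. Genes with a bacterial relative had a median of 0.0039 (46 genes) and genes specific to mitochondria a median of 0.016 (31 genes).

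In the large subunit, the transcripts furthest towards 24M were those of Mrpl4 and Mrpl10. Mrpl4 (ENSMUSG00000003299.10; GRCm38, chromosome 9, 21002738 to 21008839, plus strand) encodes a core protein next to the tunnel through which the new chain leaves. It had 13.03 and 13.4 FPKM in 24M_1 and 24M_2, 21.9 and 28.1 FPKM in 24M_3 and 24M_4, and 9.80 and 11.4 FPKM in 2M_1 and 2M_2. All 4 libraries of 24M lay above both of 2M. The mean was 13.2 ± 0.293 FPKM in 24M_1 and 24M_2 and 10.6 ± 1.15 FPKM in 2M (SD, n = 2 each), a log2 change of 0.30 ± 0.10 (SE; 95% interval 0.056 to 0.54; unadjusted p = 0.0242, limma adjusted p = 0.225), which did not pass. Mrpl10, which anchors the stalk, had 20.5 and 21.9 FPKM in 24M_1 and 24M_2, 33.9 and 42.8 FPKM in 24M_3 and 24M_4, and 19.2 and 16.9 FPKM in 2M_1 and 2M_2. Its groups did not overlap either, and its log2 change was 0.22 ± 0.09 (limma adjusted p = 0.297). The stalk protein itself, Mrpl12, had 94.6 and 130 FPKM in 24M_3 and 24M_4. Its log2 change in the first table was 0.10 ± 0.06 (limma adjusted p = 0.417), smaller than those of Mrpl52 and Mrpl15. Mrpl52, a protein specific to mitochondria, had a log2 change of 0.19 (limma adjusted p = 0.398), and Mrpl15 one of 0.17 (adjusted p = 0.496), but both stood below 2M in 24M_3 and 24M_4, with 24.6 and 30.4 FPKM for Mrpl52 and 2.71 and 3.52 FPKM for Mrpl15 against 35.0 and 31.02 FPKM and 4.70 and 5.46 FPKM in 2M.

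Mrpl53 could not be read with this precision. Its level was 20.5 FPKM in 24M_1 but 8.56 in 24M_2, 9.05 and 8.21 in 24M_3 and 24M_4, and 7.81 in 2M_1 but 17.1 in 2M_2. In the first table each age thus held a high and a low library, and the log2 change of 0.18 had a 95% interval of -1.52 to 1.88. The annotated gene Gm42688 shares 695 of the 790 exonic bases of Mrpl53 on the same strand. Its level was low where Mrpl53 was high, with 3.33, 6.52, 7.13 and 9.81 FPKM in 24M_1 to 24M_4 and 6.70 and 3.74 FPKM in 2M_1 and 2M_2. How reads were divided between the overlapping genes is not given in the sources used here, so the value of Mrpl53 is uncertain.

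In the small subunit, Mrps17, a relative of the RNA-binding bacterial protein S17, had the lowest mean level over the first table and the change of largest size there among all members. Mrps17, whose start is printed above (ENSMUSG00000034211.14; GRCm38, chromosome 5, 129715497 to 129722556, plus strand) had 2.23 and 2.48 FPKM in 24M_1 and 24M_2 and 3.37 and 3.14 FPKM in 2M_1 and 2M_2, without overlap, but 3.53 and 4.41 FPKM in 24M_3 and 24M_4, above both 2M libraries. Its log2 change was -0.34 ± 0.10 (95% interval -0.603 to -0.0805; unadjusted p = 0.0191, limma adjusted p = 0.202). Mrps5, a relative of bacterial S5, had 13.9 and 12.4 FPKM in 24M_1 and 24M_2, 6.81 and 9.29 FPKM in 24M_3 and 24M_4, and 14.9 and 14.6 FPKM in 2M. All libraries of 24M lay below 2M, with a log2 change of -0.15 ± 0.09 in the first table (limma adjusted p = 0.432). Mrps18c, at 34.1, 32.2, 24.2 and 31.3 FPKM in 24M_1 to 24M_4 and 36.2 and 35.7 FPKM in 2M, also lay below in all 4 libraries (log2 change -0.11, limma adjusted p = 0.452). Towards 24M stood Mrps35 (log2 change 0.18, limma adjusted p = 0.371), Mrps23 (0.17, adjusted p = 0.2997), Mrps2 (0.17, adjusted p = 0.380) and Mrps6 (0.16, adjusted p = 0.373). Mrps2, a relative of bacterial S2, had 11.8, 12.4, 18.1 and 20.5 FPKM in 24M_1 to 24M_4 and 11.03 and 10.3 FPKM in 2M. Its 4 libraries of 24M lay above both 2M libraries.

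The remaining members among the 10 furthest in each direction were Mrpl14, Mrps11, Mrps16, Mrpl54, Mrpl2, Mrpl9 and Mrpl36 towards 2M and Mrpl58 towards 24M. Log2 changes of those 7 lay between -0.143 and -0.090, with limma adjusted p from 0.534 to 0.699. Mrpl58, the peptidyl-tRNA hydrolase that was first described as Ict1 and frees stalled ribosomes, had a log2 change of 0.16 (limma adjusted p = 0.452).

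Across the 12546 genes in both tables as well as among the members, values of 24M_3 and 24M_4 mostly differed from those of 24M_1 and 24M_2 by more than the ages differed within the first table. For 69 of 78 members (88.5%, against 77.3% of all genes) the absolute log2 difference between the tables within 24M was larger than that between ages. It was at least 0.5 for 32 members (41.0%, against 36.9%), with 13 higher (16.7%, against 19.3%) and 19 lower (24.4%, against 17.6%) in the separate table. The largest departures below were those of Mrpl58 (5.11 and 8.73 FPKM in 24M_3 and 24M_4 against 21.1 and 21.2 FPKM in 24M_1 and 24M_2), Mrps25 (5.83 and 6.43 against 14.04 and 14.03 FPKM) and Mrps22 (6.08 and 7.19 against 14.4 and 13.8 FPKM). The largest above were those of Mrps18b (11.5 and 15.1 against 6.66 and 6.68 FPKM) and Mrpl4. The median difference was -0.122 for the members (-0.040 for large-subunit and -0.345 for small-subunit genes) and -0.0019 over all genes in both tables. Whether this reflects the animals or the separate making of the tables cannot be told apart.

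Set against 2M, the members in 24M_3 and 24M_4 lay above both libraries for 26 genes (33.3%, against 32.4% of all 12546 genes in both tables), below both for 34 (43.6%, against 38.5%) and overlapped for 18. Both comparisons use the same 2M libraries. All 4 libraries of 24M lay above 2M for 8 members (10.3%, against 9.96% of all genes), which were Mrpl4, Mrpl10, Mrpl12, Mrpl28, Mrpl33, Mrpl51, Mrps2 and Mrps6. All 4 lay below for 4 members (5.13%, against 16.3%), which were Mrps5, Mrps18c, Mrps31 and Mrps33. The first count is near the share over all genes. In 13 members the tables pointed in opposite directions without overlap. Mrpl16, Mrpl15, Mrpl52, Mrpl58, Mrps9, Mrps25, Mrps26, Mrps30 and Mrps35 were above 2M in 24M_1 and 24M_2 and below it in 24M_3 and 24M_4 (9 members or 11.5%, against 5.24% of all genes). Mrps16, Mrps17, Mrps18b and Mrpl9 were the other way round (4 members or 5.13%, against 5.86%).

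Within the separate table, nearly all members were higher in 24M_4 than in 24M_3. This was so for 72 of 78 members (92.3%), 46 of 51 in the large and 25 of 26 in the small subunit, against 36.2% of all genes in both tables, with a median log2 difference of 0.301 for the members and -0.118 over all genes. Mrpl14 had 37.7 FPKM in 24M_4 and 17.3 FPKM in 24M_3, Mrps23 had 23.4 and 11.6 FPKM, and Mrpl20 had 50.5 and 29.2 FPKM. Mrpl1 was the furthest the other way, with 4.93 FPKM in 24M_4 and 7.14 FPKM in 24M_3. With the libraries scaled to the same FPKM sum, 61 members were higher in 24M_4 (23.9% of all genes), and with the libraries centred on their median over the shared genes 77 were (58.0%). By unscaled FPKM the 13 messenger RNAs of mitochondrial DNA were all higher in 24M_4 too, at 20.3% of all FPKM in 24M_4 and 15.6% in 24M_3. The smallest differences were those of mt-Nd4l (1642 FPKM in 24M_4 and 1635 FPKM in 24M_3) and mt-Nd5 (2447 and 2403 FPKM). Counts for these genes and for the lists that follow were not recomputed under those scalings. Of the related lists described below, 15 of 18 translation factors and 19 of 27 assembly factors were higher in 24M_4. So were 13 of 21 genes listed under transcription and RNA handling, 10 of 17 aminoacyl-tRNA synthetases and 3 of 5 other mitoribosomal proteins. Among proximal tubule markers 8 of 12 were higher in 24M_4, and Kap, an androgen-regulated proximal tubule transcript, stood at 17106 FPKM in 24M_4 and 6274 FPKM in 24M_3, whereas all 6 macrophage markers were lower in 24M_4. The part of tubule content, immune cells or scaling in this difference was not tested, and with 1 library on each side there is no replicate check.

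**Figure D4:**
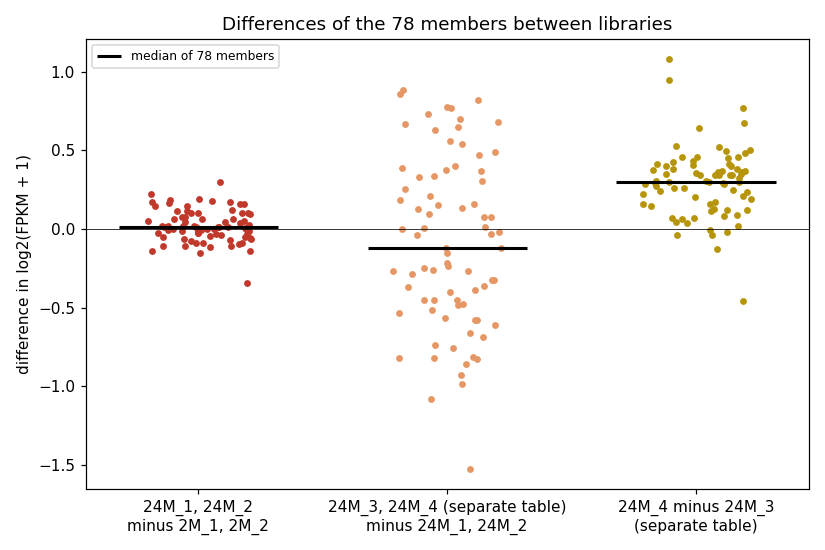
Differences in log2(FPKM + 1) for the 78 members, 1 point per gene with the median as a bar, for 24M_1 and 24M_2 minus 2M (left), for 24M_3 and 24M_4 minus 24M_1 and 24M_2 (middle) and for 24M_4 minus 24M_3 (right). The difference between ages is the narrowest, with a median of 0.012, the difference between tables the widest, from -1.52 to 0.885, and the right-hand points lie above 0 for 72 of 78 genes.

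Transcript features were set beside these differences as a description. The difference between tables had a Spearman's rho of 0.22 with GC content of the longest coding transcript over the 78 members and of 0.227 over 12478 genes, and of -0.154 and -0.279 with transcript length. The change with age in the first table had a rho of 0.071 with GC content and 0.093 with length over the members. The 26 members of lowest GC content (39.6% to 47.4%) had a median difference between tables of -0.264, and 6 of them lay above 0. The 26 of highest GC content (52.6% to 60.6%) had a median of 0.037, and 14 lay above 0. These relations are weak and are across genes of the same libraries.

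Genes of mitochondrial gene expression and DNA upkeep without an Mrp symbol were taken as 6 related lists. None of their tested genes passed in limma in either direction, against 1.57% of all genes tested. With that share and lists this short, a count of 0 does not set them apart. Each list held 1 or 2 genes at an unadjusted p below 0.05, against 16.9% of all genes tested. Among 5 other mitoribosomal proteins, 4 had a log2 change above 0 and 1 below, with a median of 0.035. Aurkaip1, a small-subunit protein, had 39.2 and 41.7 FPKM in 24M_1 and 24M_2 and 45.3 and 51.9 FPKM in 2M (fitted log2 difference -0.26, limma adjusted p = 0.236), and 27.1 and 28.2 FPKM in 24M_3 and 24M_4. Dap3, which binds GTP in the small subunit, had 7.79 and 7.98 FPKM in 24M_1 and 24M_2 and 7.67 and 7.95 FPKM in 2M. Of 26 tested assembly factors 11 lay above and 15 below 0, with a median of -0.011. The ribosomal RNA methyltransferases Mrm3 and Mrm2 went apart, at log2 changes of 0.26 and -0.33 (limma adjusted p = 0.248 and 0.259). Of 18 translation factors 8 lay above and 10 below 0, with a median of -0.011. The elongation factor Tsfm, which recharges Tufm, had 13.7 and 12.6 FPKM in 24M_1 and 24M_2 and 10.5 and 10.8 FPKM in 2M, which is a log2 difference of 0.28 ± 0.08 (SE; limma adjusted p = 0.1899).

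Of 17 mitochondrial aminoacyl-tRNA synthetases, which charge the tRNAs, 5 lay above and 12 below 0, with a median of -0.075. The lowest p belonged to Yars2 (log2 change -0.29, limma adjusted p = 0.2302) and Ears2 (0.36, adjusted p = 0.234). Of 21 genes listed under mitochondrial transcription and RNA handling 9 lay above and 12 below 0, with a median of -0.026. This list also holds Polg, Polg2, Twnk and Ssbp1, which serve the copying of mitochondrial DNA. Fastkd5, an RNA-processing protein, had a log2 change of 0.36 (limma adjusted p = 0.238), and Trmt10c, a subunit of the mitochondrial tRNA-processing enzyme, one of 0.19 (adjusted p = 0.289). The messages that the mitochondrial ribosome translates, 13 in number, made up 15.4% and 15.6% of all FPKM in 24M_1 and 24M_2 and 15.02% and 16.8% in 2M. Their median log2 change was -0.026, and mt-Nd5, a complex I subunit, had the smallest p, with 3488 and 3268 FPKM in 24M_1 and 24M_2 and 3684 and 4065 FPKM in 2M (log2 change -0.197, limma adjusted p = 0.2785).

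**Figure D5:**
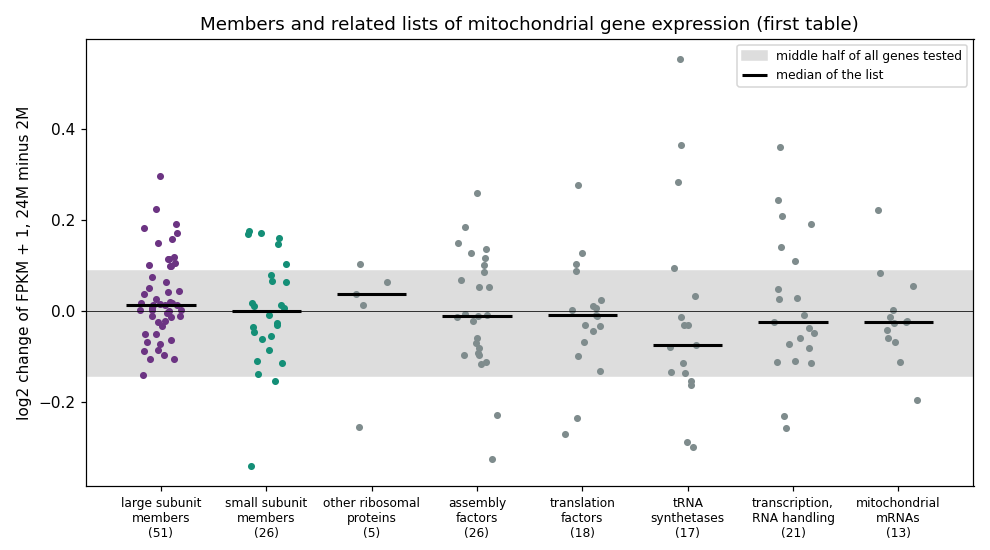
Log2 change of FPKM + 1 in the first table, 24M minus 2M, for members of the large and small subunit and for 6 related lists, 1 point per gene with the list's median as a bar and the number of genes under its name. The grey band runs between the quartiles of all genes tested, and all medians lie inside it, between -0.075 and 0.035.

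Levels and changes were set beside motif content. Members with an ETS match had a median level over the first table of 19.3 FPKM and a median log2 change of 0.0121 (26 genes), and those without one 19.6 FPKM and 0.012 (43 genes). With an NRF1 match the medians were 17.1 FPKM and 0.0121 (13 genes), without one 19.8 FPKM and 0.012 (56 genes). With a YY1 match they were 15.7 FPKM and -0.0094 (11 genes), without one 23.1 FPKM and 0.014 (58 genes). These medians are given without a test.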

How the data were processed

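RNA-seq of whole kidney was used from 6 libraries, 4 labelled 24M and 2 labelled 2M, with groups and replicate numbers from the sample titles. Both deposited tables, made separately, hold an FPKM value for each gene and library. The submitters' processing notes name mm10, DESeq2 1.20.0, featureCounts 1.5.0-p3 and HISAT2 2.0.5 without saying what each was used for. The step that made the FPKM is not given in the sources used here. With lengths from the annotation, 13.7% to 20.3% of low values lay within 0.05 of a whole-read step, so the depth is unknown and no counting interval is given.

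Symbols were matched by Ensembl ID without version (18 and 27 IDs had none). Coordinates are from GENCODE M21 on GRCm38, the assembly of mm10. The first table was tested with limma 3.58.1 (R 4.3.3) on log2(FPKM + 1) over the 11437 genes that reached 1 FPKM in 2 or more of 4 libraries. The model held age alone, with intensity trend and robust variance, two-sided. Benjamini-Hochberg FDR below 0.05 was the threshold. The scale understates changes of low genes. The fit was tested on simulated data.

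The members, the 6 related lists and the 10 marker lists were chosen with earlier results of these data known. Named members are the 10 furthest in each direction, the 5 highest and 5 lowest, and those whose 24M libraries all lay to one side of 2M (up to 5 in each direction), 31 in all. Mrpl51, Mrpl1, Mrpl16, Mrpl20, Mrps9, Mrps12, Mrps18b, Mrps22, Mrps25, Mrps26, Mrps30 and the start-site pairs were named after their values were seen. Alternatives changed the pseudocount, filter, scaling, variance model and replicates.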

Additional observations from a re-analysis of the deposited data

Results flagged for a closer look

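For 31 named members the 4 libraries of 24M were searched for a library that stands apart, by the gap to its nearest neighbour over the whole range, with Dixon's 95% critical value for 4 samples as the limit. About 1 in 20 groups would exceed it by chance if members were picked without regard to their values. The 31 were picked from these same values, so that rate does not hold here. The 4 libraries also come from 2 tables made separately, and 72 of 78 members were higher in 24M_4 than in 24M_3. In 4 members a library stood apart. For Mrpl34 24M_3 was low, at 82.5 FPKM with the other libraries at 117 to 119 FPKM (gap over range 0.934). For Mrps23 24M_3 was low as well, at 11.6 FPKM with the others at 23.4 to 25.3 FPKM (0.858). For Mrpl12 24M_4 was high, at 130 FPKM with the others at 87.7 to 94.6 FPKM (0.836). For Mrpl53 24M_1 was high, at 20.5 FPKM with the others at 8.21 to 9.05 FPKM (0.932), and this is the gene that shares most of its exons with Gm42688.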

How the results depend on the processing

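No mitochondrial ribosomal protein gene passed under any of the 10 alternatives, and the smallest adjusted p of a member ran over them from 0.173 (limma without trend and robust variance) to 0.408 (without 2M_1). The number of all genes past the threshold was 180, 108 without trend and robust variance, and 0 to 126 with 1 library left out, with 0 without 2M_1, 0 without 2M_2 and 92 without 24M_1. At an unadjusted p below 0.05 there were then 1215 genes without 2M_1 and 1452 without 2M_2. Each of these fits takes the lone library of an age to vary like the pair of the other. The members' median log2 change of 0.012 was 0.037 with libraries centred on the median, a step that moves the median of all genes to 0.0007, and ran from -0.016 without 2M_1 to 0.036 without 2M_2. With 1 library left out, 7 to 19 of the 78 members per fit took the other sign (19 without 2M_1), and 39 did so in at least 1 such fit. Among the 31 named members these were Mrpl53, from -0.402 (without 24M_1) to 0.766 (without 24M_2), with -0.338 without 2M_1, Mrpl14, from -0.296 (without 2M_1) to 0.011, Mrpl34, from -0.035 to 0.058, Mrps21, from -0.044 to 0.068, with -0.023 without 24M_2, Mrpl18, from -0.016 to 0.099, Mrpl36, from -0.206 to 0.027, Mrps10, from -0.141 to 0.086, with 0.085 without 2M_1, and Mrpl23, from -0.060 to 0.157, with -0.0105 without 24M_1. With the replicate number as a block 43 genes passed and no member, with a smallest adjusted p of 0.2902. Deviations of same-numbered libraries correlated at -0.0592 over genes. With 2 libraries per age this is a single value, which cannot decide whether the numbers pair the samples. The count of members higher in 24M_4 than in 24M_3 was recomputed under 2 scalings chosen after seeing the data, and stayed within 61 to 77 of 78. Depth is unknown, and 2 libraries per age limit each interval.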
